A study of Saccharomyces cerevisiae with 6 samples.

Results

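Aminoacyl-tRNA synthetases join each amino acid to its own transfer RNA, the step that sets which amino acid a codon stands for. They fall into class I and class II, which differ in the fold of the catalytic domain. In budding yeast the enzymes of the cytosol and of the mitochondrion are all encoded in the nucleus, mostly by separate genes, while a few genes make both forms from alternative starts. The data describe 32 such genes by their symbols in the platform annotation, out of 5656 genes measured by a probe set that names 1 gene. Of these, 19 are cytosolic members, 18 genes for enzyme subunits and the cofactor gene ARC1, and 13 encode mitochondrial enzymes. Each had 1 probe set. The members were listed by gene symbol and not by signal, but with earlier results of these data known.

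Total RNA of Saccharomyces cerevisiae cultured at 30 °C was measured on 6 single-colour Affymetrix arrays. There were 2 arrays each of wild type (WT), of cells lacking FHL1, and of cells lacking both FHL1 and IFH1 (the double deletion). FHL1 encodes a forkhead-type factor at ribosomal protein gene promoters and IFH1 its coactivator. The labels number the arrays of each group as the first and the second experiment, and give neither strain background, nor how the genes were deleted, nor the medium. No label says that the arrays of a group came from separate cultures, so p-values measure only the spread between these arrays, and their number limits the precision. Mating type markers, described below, differed between the 2 arrays of each mutant, so mating type varies within those groups. The comparisons ask how synthetase transcripts differ when FHL1 is missing, when IFH1 is missing as well, and how the mutants differ from each other.

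The deposited values are log2 signals. They were shifted so that all arrays share 1 median, and a floor of 5.63 was set, so every difference below is on the log2 scale and relative to the array median. A gene is called when its adjusted p (limma, Benjamini and Hochberg over 4242 tested genes) is under 0.05, and SE is the standard error of that model. Signals of an array come from one pool of RNA, so less of a transcript in every cell and fewer cells that make it cannot be told apart. Levels of different probe sets are not compared.

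IFH1 lay at the floor on both double deletion arrays and at 8.38 to 8.92 on the other arrays. FHL1 was under the floor everywhere, with deposited values of 4.91 and 5.02 for WT against 2.66 to 3.18 on mutant arrays. MATa markers (MFA1 at 12.87 and 12.83) appeared on 2 arrays, 1 from each mutant (experiment 1 for the FHL1 deletion, experiment 2 for the double deletion), and MATalpha markers on the other 4. Many probe sets had identical values on WT 1 and FHL1 deletion 2 (502) and on WT 1 and double deletion 1 (573). These 3 arrays are called set A, and the remaining 3, with both MATa arrays, set B. The signal of ACT1 at its 3' end minus that at its 5' end, a sign of RNA integrity, was 0.93 and 0.96 for WT against 1.02 to 1.15 for the mutants. The median of 9 bacterial hybridisation controls, relative to the gene median, was 0.10 to 0.18 for WT and -0.88 to -0.39 for the mutants. Over all probe sets, the 10th percentile of the deposited values was 4.65 and 4.78 for WT against 4.35 to 4.57 for the mutants. The gene median was 8.20 and 8.21 for WT against 8.28 to 8.33. The part of all these differences in the results below, also in those of dim genes, was not tested.

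In the FHL1 deletion, most synthetase transcripts had lower values than in WT, with the lower median among the mitochondrial ones. Of the 25 members tested, 8 fell, 0 rose and 17 did not pass, so 32% of the tested members fell, against 8.42% of all genes tested (12.9% rose, and 21.3% were called in either direction). The 3 cytosolic falls were VAS1 (YGR094W), CDC60 (YPL160W) and DED81 (YHR019C), and the 5 mitochondrial falls were ISM1 (YPL040C), MSK1 (YNL073W), MSR1 (YHR091C), NAM2 (YLR382C) and MSD1 (YPL104W). The median difference was -0.37 for 19 cytosolic members and -0.61 for the 6 mitochondrial members tested, against 0.02 for all genes tested. The other 7 mitochondrial members were too dim for the test and are described with their values.

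**Figure D1:**
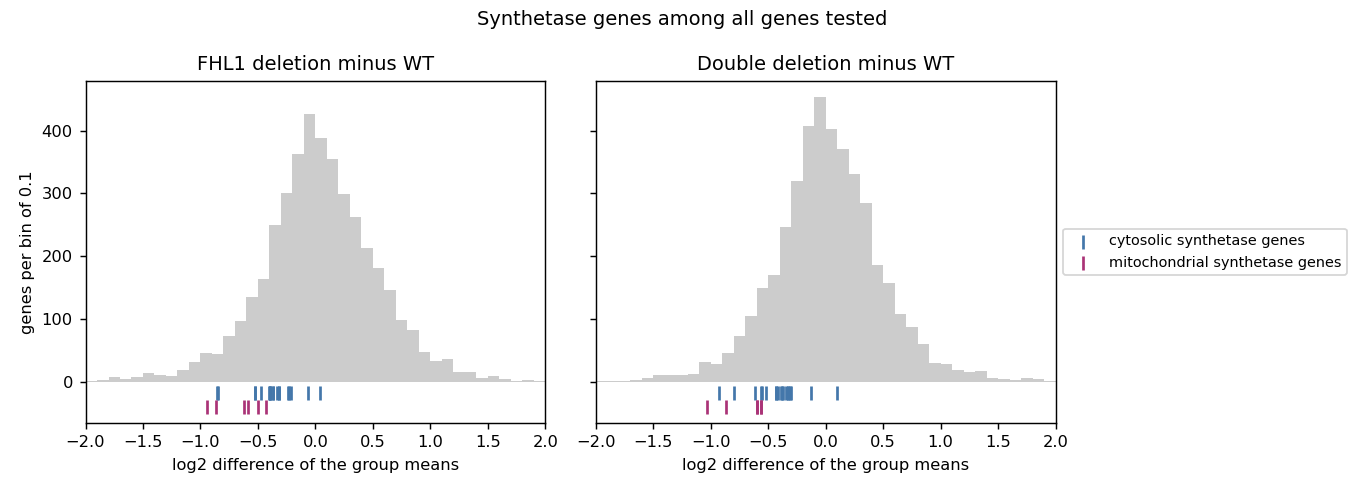
Histograms of the log2 difference from WT for all 4242 tested genes (grey, bins of 0.1, with 28 and 24 genes beyond the axis), with the tested synthetase genes as ticks below, cytosolic in blue and mitochondrial in purple. All ticks lie below 0 in both panels, within the spread of all genes, except that of FRS1 at 0.04 and 0.10.

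The calls rest on few arrays. Leaving out the WT array of the first experiment ended all 8 calls, when 7.61% of all genes were still called; leaving out the WT array of the second kept CDC60 and ISM1 (5.16% of genes). With FHL1 deletion array 1 left out, VAS1 and MSK1 were kept (14.1% of genes), and with array 2 left out, CDC60 and ISM1 (11.2%).

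Among cytosolic enzymes the largest differences were those of VAS1 and CDC60. VAS1 makes valyl-tRNA synthetase for both the cytosol and the mitochondrion. It had signals of 10.44 and 10.39 on the WT arrays, 9.69 and 9.42 without FHL1, and 9.46 and 9.77 without both genes, always with the first experiment given first. All 4 mutant arrays were below both WT arrays. The fall in the FHL1 deletion was 1.81-fold (-0.86, SE 0.17, adjusted p = 0.0152), at -1.02 within set A and -0.70 within set B.

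CDC60, the cytosolic leucyl-tRNA synthetase gene, had 10.45 and 10.04 in WT, 9.31 and 9.49 without FHL1, and 9.37 and 9.28 without both genes. Again the mutants lay apart from WT, although the WT arrays were farther from each other than the arrays of either mutant. The fall was 1.80-fold in the FHL1 deletion (-0.85, SE 0.17, adjusted p = 0.0173). DED81, for asparaginyl-tRNA synthetase, had 11.65 and 11.40 in WT, 10.90 and 11.10 without FHL1, and 11.00 and 10.83 without both genes. Its fall of 0.52 (SE 0.15, adjusted p = 0.0477) was close to the threshold and was lost under 13 of 20 alternative settings.

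The remaining 16 cytosolic members did not pass, yet nearly all of them had lower values. GLN4 (YOR168W), for glutaminyl-tRNA synthetase, had 9.30 and 9.20 in WT, 8.69 and 8.87 without FHL1, and 8.66 and 8.72 without both genes, so no mutant array reached a WT array. Its difference in the FHL1 deletion, -0.47 (SE 0.14, adjusted p = 0.0503), lay just outside the threshold. Over all 19 cytosolic members, 18 had a difference below 0, and in 16 both FHL1 deletion arrays were below both WT arrays, which held for 29.5% of all genes tested. In 0 were both above, against 34.1% of all genes. Within sets the cytosolic median was -0.41 (set A) and -0.34 (set B), with 18 and 17 of 19 members below 0.

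Methionyl- and glutamyl-tRNA synthetase, from MES1 and GUS1, are held in a complex by the cofactor Arc1. MES1 had 11.10 and 11.29 in WT, 10.78 and 10.55 without FHL1, and 10.49 and 10.80 without both genes. GUS1 had 11.64 and 11.31 in WT, 10.96 and 11.22 without FHL1, and 11.13 and 10.79 without both genes. ARC1 had 11.26 and 10.90 in WT, 10.87 and 10.83 without FHL1, and 10.71 and 10.81 without both genes. In none of the 3 genes did the WT and mutant arrays overlap, but the gap was narrow for ARC1, whose WT arrays were far apart. None passed in the FHL1 deletion: MES1 gave -0.53 (adjusted p = 0.0612), GUS1 -0.39 (adjusted p = 0.17) and ARC1 -0.23 (adjusted p = 0.324).

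The genes for both subunits of cytosolic phenylalanyl-tRNA synthetase had different values. FRS2, the alpha subunit gene, had 10.90 and 10.77 in WT, 10.38 and 10.49 without FHL1, and 10.45 and 10.40 without both genes, a difference of -0.40 in the FHL1 deletion (SE 0.13, adjusted p = 0.0695). FRS1, the beta subunit gene, had 12.96 and 13.04 in WT, 13.05 and 13.04 without FHL1, and 13.10 and 13.10 without both genes. FRS1 was the single cytosolic member with a difference above 0 against WT (0.04, 95% interval -0.17 to 0.25). The difference between both subunits was not tested.

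TYS1 and HTS1, for tyrosyl- and histidyl-tRNA synthetase, were, with FRS1, the members whose FHL1 deletion arrays overlapped those of WT. TYS1 had 10.61 and 10.11 in WT, 10.16 and 10.43 without FHL1, and 10.47 and 9.99 without both genes. HTS1 had 11.41 and 11.14 in WT, 10.99 and 11.14 without FHL1, and 11.21 and 10.68 without both genes. In both genes the WT arrays differed from each other by more than the FHL1 deletion mean differed from the WT mean. For HTS1 the double deletion difference, -0.33, was larger than the gap between the WT arrays. It was smaller than the gap between the double deletion arrays, which overlapped those of WT, and it did not pass in limma (adjusted p = 0.301). The intervals of the FHL1 deletion difference were wide, from -0.61 to 0.48 for TYS1 and from -0.68 to 0.26 for HTS1. The other cytosolic members, ALA1, DPS1, GRS1, ILS1, KRS1, SES1, THS1 and WRS1, for the alanyl, aspartyl, glycyl, isoleucyl, lysyl, seryl, threonyl and tryptophanyl enzymes, had FHL1 deletion differences between -0.39 (GRS1) and -0.24 (SES1). In all 8 the mutant arrays lay below WT, and none passed the threshold.

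**Figure D2:**
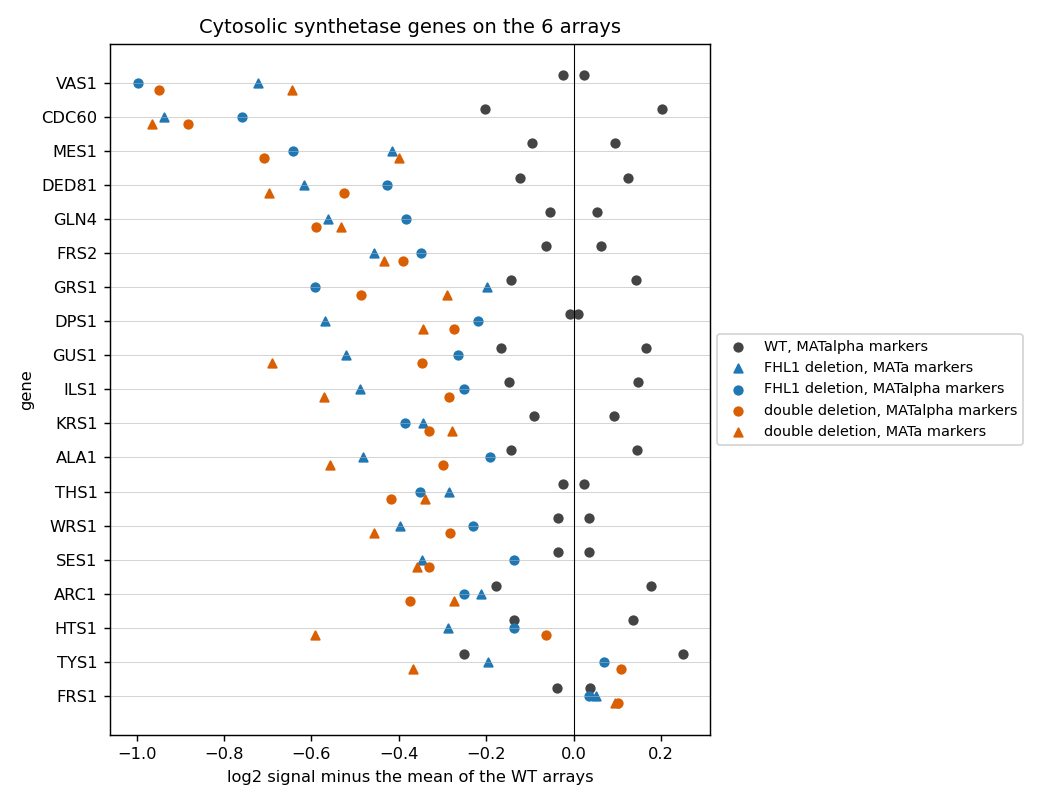
Log2 signal of the 19 cytosolic members on each array, minus the mean of both WT arrays; dark grey points are WT, blue the FHL1 deletion and orange the double deletion, with triangles for the arrays with MATa markers. Mutant points lie left of the WT points for most genes, with VAS1 and CDC60 farthest left and FRS1 close to 0.

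The mitochondrial enzymes were lower on every mutant array. All 13 members, tested or not, had both FHL1 deletion arrays below both WT arrays, with differences from -1.04 (MST1) to -0.41 (SLM5) and a median of -0.62. Both arrays were below WT in 29.5% of all genes tested. That share leaves out the dimmest genes, to which 7 of the 13 belong, and the share among equally dim genes was not computed. No member was at the floor on any array, so these differences were not cut short by it. Among the 6 tested, 5 fell, against 8.42% of all genes, and MSM1 did not pass. ISM1, among these 5, passed the low-signal filter through its WT arrays. With no gene left out for low signal, 4 of 13 fell, against 5.64% of all genes.

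MSK1 encodes the mitochondrial lysyl-tRNA synthetase. It had 9.17 and 9.01 in WT, 8.39 and 8.06 without FHL1, and 8.15 and 7.96 without both genes. The lower WT array was thus well above the highest mutant array. The fall was 1.82-fold in the FHL1 deletion (-0.87, SE 0.17, adjusted p = 0.0145), with -1.11 in set A and -0.62 in set B.

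ISM1, for the mitochondrial isoleucyl enzyme, had 8.27 and 7.87 in WT, 7.00 and 7.25 without FHL1, and 7.32 and 7.09 without both genes. This was the largest difference among the members tested in the FHL1 deletion, a fall of 1.92-fold (-0.94, SE 0.20, adjusted p = 0.0181). The low-signal filter used the mean over all arrays, and ISM1 passed it through its WT signal. Its mean was 8.07 in WT but 7.13 and 7.20 in the mutants, while MSE1, with 7.58, 7.09 and 6.94, was left out. The ISM1 calls in both mutants were lost when no gene was left out for low signal. NAM2, for the mitochondrial leucyl enzyme that also takes part in splicing of mitochondrial introns, had 8.60 and 8.48 in WT, 7.87 and 8.03 without FHL1, and 8.07 and 7.90 without both genes. It fell by 0.59 in the FHL1 deletion (SE 0.15, adjusted p = 0.0314), and sets A and B gave similar values (-0.57 and -0.61).

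MSR1, for the mitochondrial arginyl enzyme, had 9.82 and 9.67 in WT, 9.18 and 9.07 without FHL1, and 9.21 and 9.08 without both genes. MSD1, for the aspartyl enzyme, had 8.53 and 8.60 in WT, 8.05 and 8.10 without FHL1, and 8.05 and 7.89 without both genes. Both genes kept a clear gap between WT and every mutant array. In the FHL1 deletion MSR1 fell by 0.62 (SE 0.14, adjusted p = 0.0238) and MSD1 by 0.50 (SE 0.14, adjusted p = 0.0435). MSM1, for the methionyl enzyme, had 7.92 and 8.03 in WT, 7.66 and 7.44 without FHL1, and 7.31 and 7.52 without both genes, and its difference of -0.43 (SE 0.16) gave adjusted p = 0.103.

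The 7 dim mitochondrial members spanned the range of all 13, from MST1 to SLM5. MST1, the threonyl enzyme gene, had 7.49 and 7.15 in WT, 6.12 and 6.45 without FHL1, and 6.12 and 6.004 without both genes. MSY1, for the tyrosyl enzyme, had 7.50 and 7.85 in WT, 6.95 and 6.55 without FHL1, and 6.62 and 6.94 without both genes. DIA4, for the seryl enzyme, had 7.20 and 6.94 in WT, 6.27 and 6.26 without FHL1, and 6.30 and 5.79 without both genes. In the FHL1 deletion these 3 genes were 2.05-fold, 1.90-fold and 1.75-fold lower, and WT did not overlap either mutant.

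MSF1, for the mitochondrial phenylalanyl enzyme, had 7.05 and 6.54 in WT, 6.10 and 6.18 without FHL1, and 6.08 and 5.73 without both genes. MSW1, for the tryptophanyl enzyme, had 7.18 and 7.47 in WT, 6.90 and 6.70 without FHL1, and 6.52 and 6.63 without both genes. MSE1, for the glutamyl enzyme, had 7.70 and 7.46 in WT, 6.93 and 7.25 without FHL1, and 7.16 and 6.72 without both genes. Every mutant array was below WT in these genes too, with differences of -0.65 (MSF1), -0.52 (MSW1) and -0.49 (MSE1) when FHL1 was missing. When no gene was left out for low signal, limma called 2 of the 7 dim members: MST1 (adjusted p = 0.0378) and SLM5 (adjusted p = 0.0293). SLM5, for the asparaginyl enzyme, had arrays close together, at 7.27 and 7.20 in WT, 6.86 and 6.79 without FHL1, and 6.72 and 6.77 without both genes. In that fit 4 of the 8 calls were lost (DED81, MSD1, NAM2 and ISM1), FRS2 and THS1 newly passed, and 13.1% of all genes were called.

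**Figure D3:**
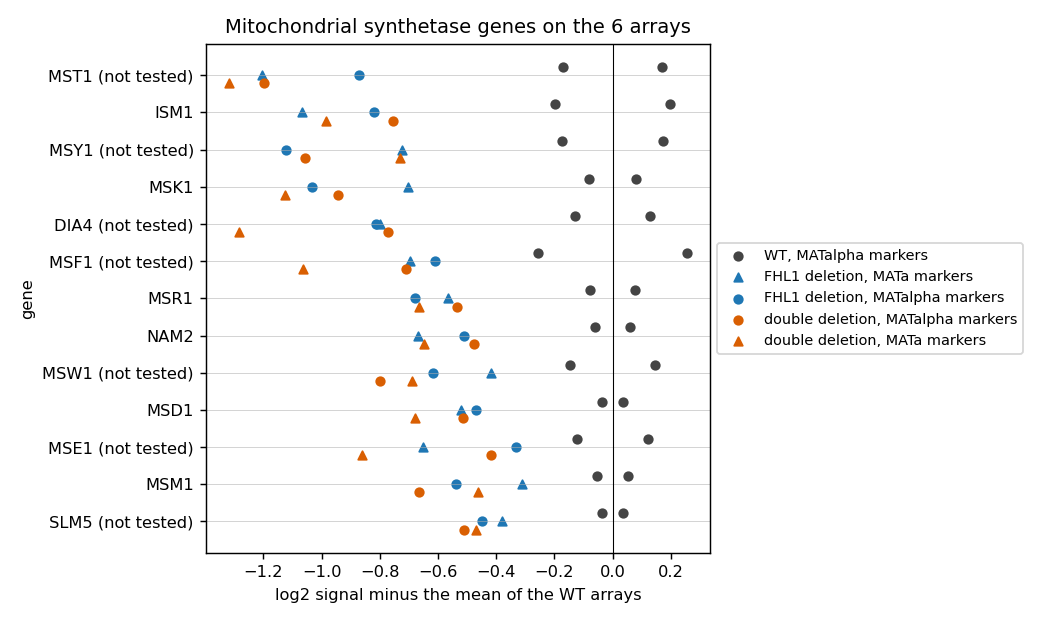
Log2 signal of the 13 mitochondrial members on each array, minus the mean of both WT arrays, with colours by group and triangles for the arrays with MATa markers. All mutant points lie left of all WT points for each gene, and MST1 reaches the lowest values.

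The double deletion gave similar values against the same WT arrays, so the comparisons are not independent. Of 25 members tested, 9 fell and 0 rose, which is 36%, against 8.46% of all genes that fell and 9.78% that rose (18.2% called in all). The 9 were the 8 above and GLN4. Medians were -0.39 for the cytosolic members and -0.60 for the tested mitochondrial members, against 0.01 for all genes tested. Over all 13 mitochondrial members the median was -0.74.

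MSK1 fell most among tested members, by 2.05-fold (-1.04, SE 0.17, adjusted p = 0.00964). CDC60 fell by 1.90-fold (-0.92, SE 0.17, adjusted p = 0.0165), ISM1 by 1.83-fold (-0.87, SE 0.20, adjusted p = 0.028) and VAS1 by 1.74-fold (-0.80, SE 0.17, adjusted p = 0.0227). DED81 fell by 0.61, MSR1 by 0.60, MSD1 by 0.60, NAM2 by 0.56 and GLN4 by 0.56, with adjusted p from 0.0294 (MSD1) to 0.0404 (NAM2). MSM1 at -0.56 (adjusted p = 0.0522), THS1 at -0.38 (adjusted p = 0.0576) and MES1 at -0.55 (adjusted p = 0.0583) lay just outside the threshold. MST1, which was not tested, was 2.39-fold lower than in WT and DIA4 2.04-fold lower. All 13 mitochondrial members and 16 of 19 cytosolic members had both double deletion arrays below both WT arrays. This held for 29.4% of all genes tested, a share that leaves out genes as dim as the untested mitochondrial members. FRS1 had both above, as had 31.5% of all genes.

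These calls too depended on single arrays. With WT array 1 left out 0 of the 9 were kept, and 4.9% of all genes were called; with WT array 2 left out, CDC60 was kept (3.14%). Without the double deletion array of the first experiment CDC60 and MSK1 were kept (7.71%), and without that of the second VAS1 and MSK1 (6.74%). With no gene left out for low signal, MSK1 and MSR1 were kept, 7 of the 9 calls were lost, and THS1, MST1 and SLM5 newly passed (8.15%).

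**Figure D4:**
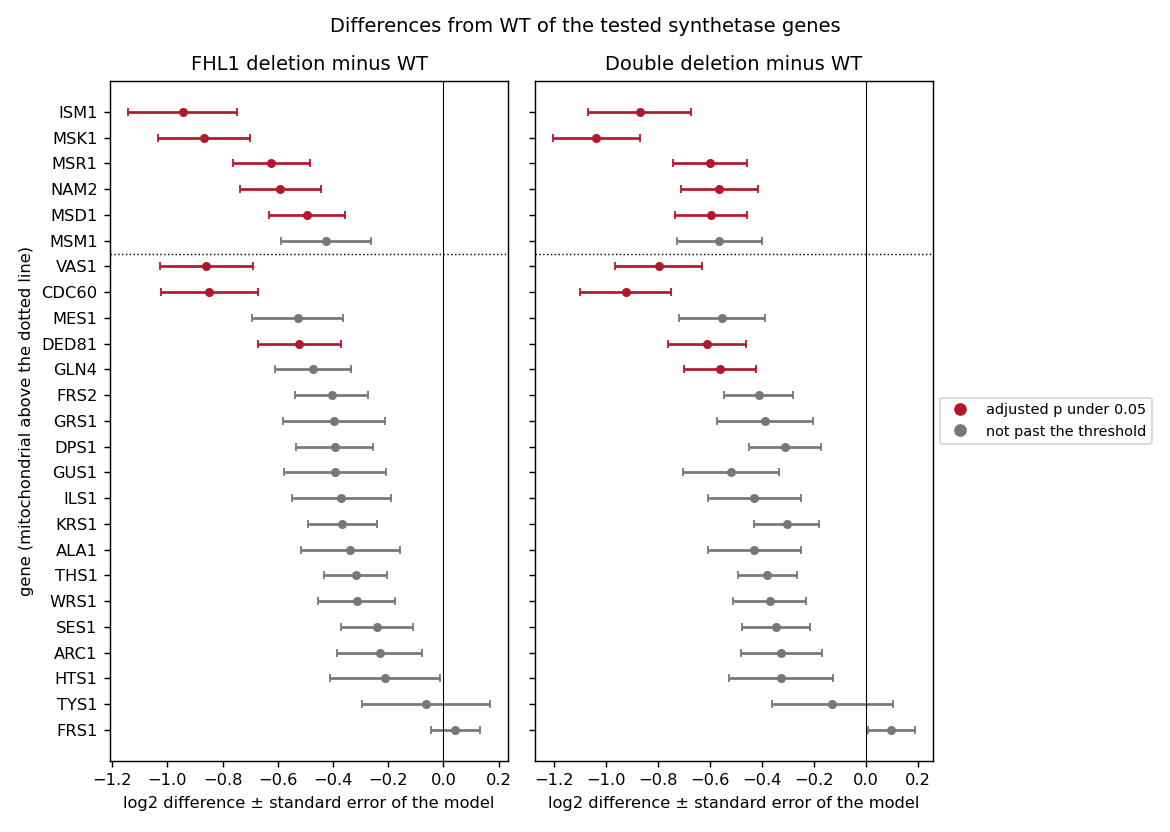
Log2 differences from WT of the 25 tested members with the standard error of the model, for the FHL1 deletion (left) and the double deletion (right); red points passed the threshold. Every tested mitochondrial member lies below 0 in both panels, and FRS1 is the single member above 0.

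No synthetase gene passed the test between the mutants. Of 25 members 0 were called in limma, and 0 had an unadjusted p under 0.05. In the same comparison 0.0236% of all genes passed (1 gene, IFH1 itself) and 213 of 4242 had an unadjusted p under 0.05. Member differences ran from -0.17 (MSK1) to 0.08 (DPS1) among those tested, with medians of -0.06 (cytosolic) and -0.04 (mitochondrial). The 95% intervals reached from -0.61 to 0.48 for TYS1, the widest, and from -0.16 to 0.26 for FRS1, the narrowest. MSF1 at -0.23, MSW1 at -0.23, ARC1 at -0.09 and SLM5 at -0.08 had both double deletion arrays below both FHL1 deletion arrays. This held for 19% of all genes tested, which do not include MSF1, MSW1 and SLM5. FRS1 and KRS1 had both above, as had 12.5% of all genes tested.

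Among the listed members, genes for the cytosolic and the mitochondrial enzyme were set side by side for 12 amino acids. This gave 13 gene pairs, since 2 subunits share 1 mitochondrial counterpart. The further synthetase genes described below were not paired. In the FHL1 deletion the mitochondrial gene had the lower difference in 10 pairs and the cytosolic gene in 3: CDC60 with NAM2, DED81 with SLM5 and MES1 with MSM1. The widest pair was that for tyrosine, with -0.06 for TYS1 and -0.92 for MSY1. The threonine pair followed, with -0.32 for THS1 and -1.04 for MST1, and then the pair of FRS1 (0.04) and MSF1 (-0.65). In each of these pairs the mitochondrial gene was too dim for the test. In the double deletion, against the same WT arrays, 11 pairs had the lower difference in the mitochondrial gene. Only 5 pairs had both genes tested, of which 3 had the lower mitochondrial value without FHL1 and 4 without both genes. The difference within a pair was not tested, and the pairs share their arrays.

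**Figure D5:**
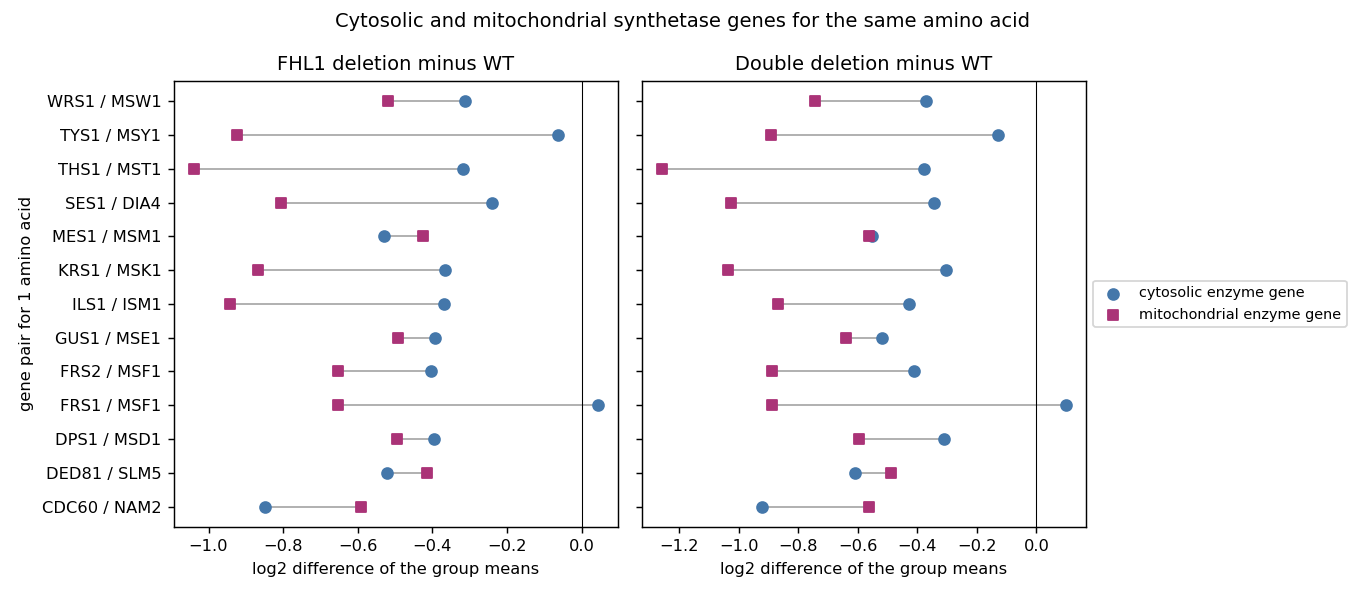
Log2 difference from WT of the cytosolic (blue circles) and mitochondrial (purple squares) enzyme genes, 1 line per gene pair, in the FHL1 deletion (left) and the double deletion (right), whose axes differ in range. The square lies left of the circle in 10 of 13 lines on the left and 11 of 13 on the right.

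Of the 4 members listed as single genes for a cytosolic and a mitochondrial form, VAS1 fell and the other 3 did not pass. Their FHL1 deletion differences were -0.34 (ALA1), -0.39 (GRS1) and -0.21 (HTS1). The median of all 4 was -0.37, as was that of the other 15 cytosolic members. By catalytic class, 2 of 8 cytosolic class I genes and 1 of 10 class II genes fell in the FHL1 deletion, with medians of -0.43 and -0.35. In the double deletion 3 of 8 and 1 of 10 fell, with medians of -0.54 and -0.36. Of all genes 8.42% and 8.46% fell, and 1 in 10 is close to these shares. The counts are small, and the classes were not tested against each other.

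Longer cytosolic genes tended to have lower differences. Coding lengths ran from 1131 bases (ARC1) to 3315 bases (VAS1) among cytosolic members. Across the 19, Spearman's correlation of coding length with the log2 difference was -0.61 without FHL1 and -0.67 without both genes, against -0.32 and -0.17 across all 4242 tested genes. Across the 13 mitochondrial members, tested or not, it was 0.04 and 0.40. The genes share arrays and the ACT1 signal at the 3' end over the 5' end also differed between WT and mutants, as given above. A link between that difference and gene length was not tested.

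Other genes of tRNA maturation, transport and delivery, pooled over the lists, had medians near 0. Of 76 tested genes on these pathway lists, which leave out synthetase relatives, 7 rose (9.21%) and 4 fell (5.26%) when FHL1 was missing, with a median of 0.04, against 12.9% and 8.42% of all genes. When both genes were missing 5 rose (6.58%) and 5 fell (6.58%), with a median of 0.06, against 9.78% and 8.46%. The 5 further synthetases or synthetase relatives all had differences below 0, with medians of -0.42 and -0.51. Of these, YHR020W fell by 0.54 in the FHL1 deletion (adjusted p = 0.0389) and by 0.51 in the double deletion (adjusted p = 0.0499). YHR020W is the neighbour of DED81 in gene order, and its signals were 11.25 and 11.32 in WT, 10.80 and 10.68 without FHL1, and 10.64 and 10.91 without both genes. AIM10, similar to prolyl-tRNA synthetases, fell by 0.89 in the double deletion (adjusted p = 0.0433) and had -0.71 in the FHL1 deletion (adjusted p = 0.076).

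The list for delivery of charged tRNA to ribosomes named 7 genes, and those without a probe set naming them alone were not measured. The 5 tested genes were all for elongation factors or their subunits. In the FHL1 deletion 2 of them fell (40%, against 8.42% of all genes), and the list median was -0.06. TEF4, an elongation factor subunit gene, fell by 0.60 (adjusted p = 0.0165), and TUF1, the mitochondrial elongation factor Tu gene, fell by 0.58 (adjusted p = 0.0475). In the double deletion the same 2 genes fell (40%, against 8.46%), TEF4 by 0.57 (adjusted p = 0.0233) and TUF1 by 0.73 (adjusted p = 0.0281). On the list for mitochondrial amidation and formylation, with 2 genes tested, GTF1 rose in both mutants (50%, against 12.9% and 9.78% of all genes). It passed the low-signal filter, which used the mean over all arrays, through its mutant signals. Its WT signals lay under those of MSE1, which was left out. GTF1, for a subunit of the amidase that converts mischarged glutamyl-tRNA, had 6.85 and 6.49 in WT, 7.84 and 7.90 without FHL1, and 7.51 and 7.63 without both genes, rises of 1.20 (adjusted p = 0.00582) and 0.90 (adjusted p = 0.0177).

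In the tRNA end processing and splicing list (16 tested), 4 rose (25%, against 12.9% of all genes) and 0 fell (against 8.42%) without FHL1. The smallest adjusted p were those of SEN15, a splicing endonuclease subunit gene, at 1.13, and of POP4 at 0.97 and POP7 at 1.29, for subunits of ribonuclease P. In the double deletion 3 rose (18.8%, against 9.78%) and 0 fell (against 8.46%), with SEN15 at 0.81, POP4 at 0.71 and POP7 at 0.79. Among 49 tRNA modification genes, 2 rose and 2 fell without FHL1 (4.08% each, against 12.9% and 8.42% of all genes). Without both genes 1 rose and 3 fell (2.04% and 6.12%, against 9.78% and 8.46%). All 4 shares were below those of all genes. The methyltransferase genes TRM10 at 0.85 and TRM1 at -0.62 and the gene CGI121, of a threonylcarbamoyl modification complex, at 0.67 had the smallest adjusted p in the FHL1 deletion. In the double deletion TRM1 at -0.71, ABP140, a further methyltransferase gene, at -0.69 and MTO1, for a mitochondrial wobble modification enzyme, at -1.10 had the smallest. None of the 4 genes tested for tRNA transport passed in either comparison. All 4 had differences below 0 in both, with medians of -0.25 and -0.15, against 0.02 and 0.01 for all genes.

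GCN4 encodes the activator of amino acid synthesis genes. It had 12.70 and 12.52 in WT, 13.12 and 12.96 without FHL1, and 13.00 and 13.08 without both genes. It rose by 0.43 in each deletion (adjusted p = 0.0364 and 0.0417). Of all genes tested, 12.9% and 9.78% rose. A relation of GCN4 to the synthetase genes was not tested.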

How the data were processed

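Labels gave the 3 groups and the experiment numbers. The authors deposited log2 values per probe set and array. Their range shows the scale. How they were summarized and normalized is not stated in any source used. Of 9335 probe sets, 6504 named 1 gene in the platform annotation and gave 5656 genes, all matched to the reference gene table; the brightest probe set was used per gene. Each array's median over the 6504 probe sets was subtracted and the mean of the 6 medians added back. A floor was set at the 10th percentile (5.63). Genes in the lowest 25% by mean were dropped, leaving 4242 tested.

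Tests used limma 3.58.1 under R 4.3.3 (lmFit, 1 mean per group, eBayes with a trend), with 3 residual degrees of freedom over all 6 arrays. Adjusted p (Benjamini and Hochberg) covers all genes tested, with a threshold of 0.05. The model was tested on simulated data with known changes. For the FHL1 deletion comparison it found 62% of changes of 0.5 on the log2 scale and 99% of changes of 1. A member that did not pass may therefore still differ.

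Members and lists were chosen with earlier results of these data known. The rule for named genes takes every member, and per pathway list up to 3 called genes with the smallest adjusted p; FHL1, IFH1, HIS3, GCN4 and mating type markers were added. Alternatives covered scaling, floor, filter, probe sets, experiment number as a block, arrays in the fit, trend and each array left out. A median over 1 probe set per gene, array set as a block, and the arrays with MATalpha markers alone were added after seeing the data. Sequences and promoter motifs were not analysed here.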

Additional observations from a re-analysis of the deposited data

How the results depend on the processing

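Under 20 alternatives, 3 of them chosen after seeing the data, no called member changed direction. Counts of calls changed more than the differences did, and the causes were not tested beyond what a setting itself removes. Calls below are given for cytosolic, then mitochondrial members, with medians where they moved. In the FHL1 deletion against WT (3 and 5 called), the deposited scaling kept 3 mitochondrial calls with medians of -0.26 and -0.50, a scaling that moved the median of all genes from 0.02 to 0.13 and the split of rises to falls from 546 and 357 to 769 and 267 (in the double deletion from 415 and 359 to 521 and 269). A median over 1 probe set per gene gave 6 cytosolic calls, the replicate block 2 mitochondrial calls (505 genes in all, with CDC60, VAS1, MSK1 and ISM1 kept of 8), array set as a block 13 cytosolic and 6 mitochondrial calls (1767 genes, 41.7% of those tested), and leaving out the lowest 50% of genes 2 mitochondrial calls and a median of -0.75, since fewer members were tested. Keeping the 4 MATalpha arrays alone, which leaves 1 array of each mutant and takes the spread from WT, gave 3 mitochondrial calls and medians of -0.26 and -0.54.

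In the double deletion against WT (4 and 5 called), the deposited scaling gave 2 cytosolic calls and a mitochondrial median of -0.52; no filter gave 1 cytosolic call, THS1, which was not among the 4, a mitochondrial median of -0.74 and 461 genes; the replicate block gave 1 and 1, CDC60 and MSK1 (315 genes); array set as a block gave 13 cytosolic and 6 mitochondrial calls (1577 genes, 37.2%); leaving out the lowest 50% gave 2 mitochondrial calls and a median of -0.82; and the MATalpha arrays gave 2 mitochondrial calls and a median of -0.54. Between the mutants the mitochondrial median was -0.14 with no filter and 0.033 on the MATalpha arrays, and the count over all genes was 5 with array set as a block, 45 on the MATalpha arrays, and 0 with the lowest 50% left out or only the arrays compared, but 0 members were called under any setting.

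With each array left out in turn, a lone array being assumed to vary like the other groups, the FHL1 deletion gave 0 to 2 cytosolic and 0 to 4 mitochondrial calls, 219 to 864 genes, and medians of -0.43 to -0.26 and -0.67 to -0.54. The double deletion gave 0 to 4 and 0 to 5 calls, 133 to 821 genes, and mitochondrial medians of -0.67 to -0.60. The mutants compared gave 1 to 34 genes and mitochondrial medians of -0.054 to 0.034. Both other floors, averaged probe sets and plain-suffix probe sets kept all 17 calls. Deviations from group means correlated between same-numbered arrays at -0.38 (WT and FHL1 deletion), 0.42 (WT and double deletion) and -0.63 (both mutants), so the numbers were not taken to pair the arrays; array set as a block is the crossed pairing. Low signal over background limits the 7 untested mitochondrial genes.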
